A study of Mus musculus with 6 samples.

Results

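The retinoic acid pathway genes described here are Aldh1a2, Cyp26a1, Cyp26b1, Dhrs3, Crabp1, Crabp2, Rara, Rarb and Rarg, 9 of the 56805 genes in the deposited count table. They were chosen by name for their roles in retinoid synthesis, breakdown, binding and reception, and all 9 passed the filter on low counts. The libraries, 3 cervical and 3 thoracic, were made from total RNA, depleted of ribosomal RNA, of motor neurons from e12.5 mouse embryos. All embryos carried the genotype label control and had no treatment. No source used here gives the strain, any reporter allele, the way the motor neurons were isolated or the number of embryos per library. Nothing in the labels says from which embryos the replicates came, so a p-value reflects library-to-library spread, which may be technical.

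Retinoic acid is made from vitamin A by oxidation of retinol to retinal and then to the acid, and it acts through nuclear receptors that bind DNA together with retinoid X receptors. Cytochromes of the Cyp26 family degrade it, and several of its direct target genes encode parts of the pathway itself, among them Rarb, Cyp26a1 and Dhrs3. In the developing spinal cord, retinoic acid from the neighbouring mesoderm promotes motor neuron formation and the expression of anterior Hox genes. Limb-level motor neurons later make the acid themselves through Aldh1a2, and this source acts on later-born neurons of the lateral motor column.

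Of the 9 genes, 4 were higher in cervical than in thoracic libraries once replicate number was taken into account: Aldh1a2, Cyp26a1, Dhrs3 and Rarb. Their mean levels differed 5.56-fold, 3.54-fold, 2.54-fold and 1.75-fold. None of the 9 was called in the fit on region alone, in which 0.542% of all genes tested were called, 0.191% with the cervical level on top and 0.35% with the thoracic level on top (edgeR quasi-likelihood test, Benjamini-Hochberg adjusted p below 0.05). In that fit 5 of the 9 had an unadjusted p below 0.05, against 8.47% of all 21972 genes tested. Without the block, DESeq2 called 1 of the 9 (Cyp26a1), against 408 of all 21972 genes tested, and limma-voom called 0, against 107. With replicate number as a block, edgeR called 4 of the 9, all higher in cervical libraries, against 0.573% of all genes tested in this direction and 1.39% in the other. The remaining 5 genes, Cyp26b1, Crabp1, Crabp2, Rara and Rarg, were called in neither fit.

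Both regions carry replicate numbers in their titles. Over all genes tested, libraries with the same number deviated together from their region's mean to a modest degree (correlations of 0.207, 0.201 and 0.240). Levels below are read counts scaled to a common library total (CPM, with TMM factors), given for replicates 1, 2 and 3 in that order. Log2 fold changes are cervical minus thoracic.

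In the plot of levels by library, lines join libraries of the same number. They run down to the right in all 3 pairs for Aldh1a2, Cyp26a1, Dhrs3, Rara, Rarb and Rarg. The slope gives the direction of a pair and not whether its libraries deviated together.

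**Figure D1:**
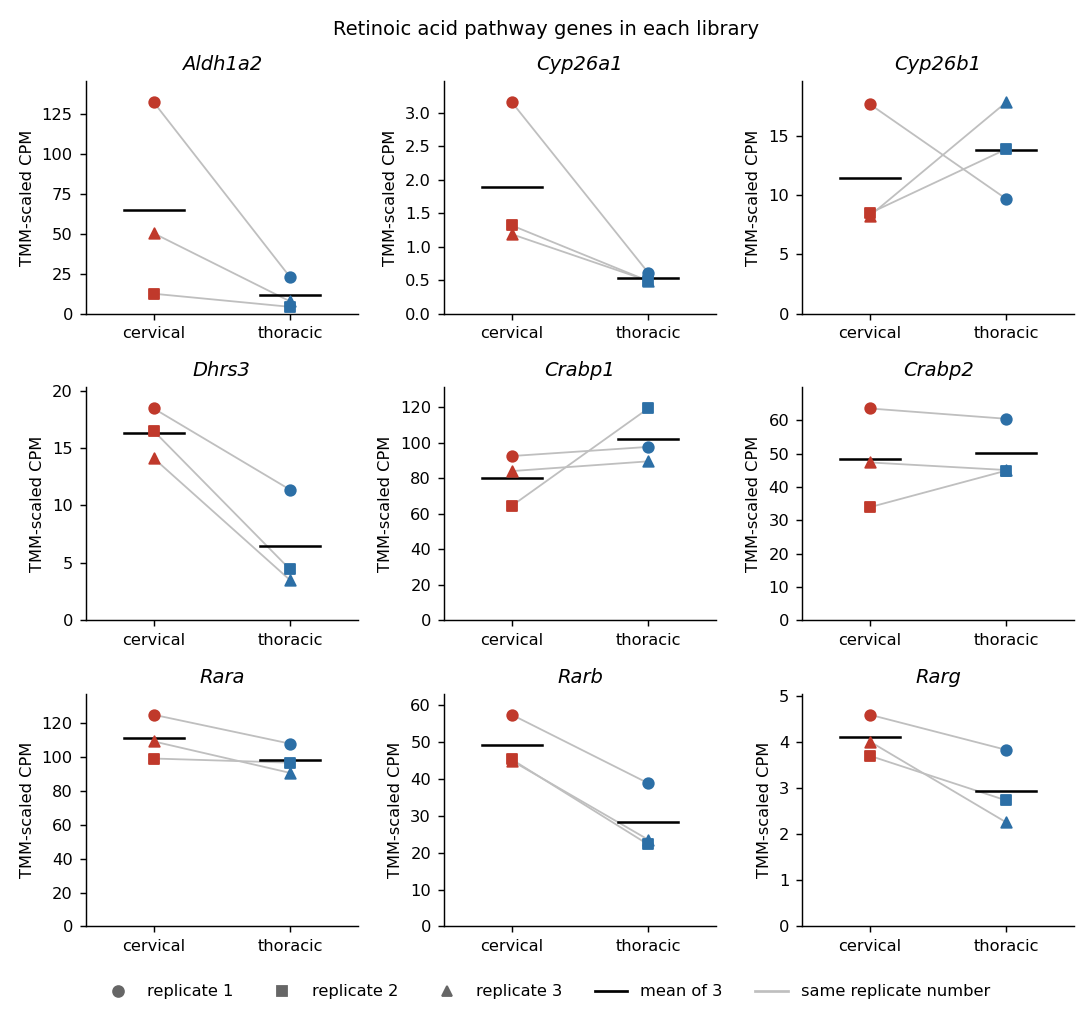
TMM-scaled CPM of the 9 genes in each library, cervical (red) left of thoracic (blue), with 1 marker shape per replicate number, a black bar for the mean of 3 and grey lines joining libraries of the same number. Cyp26a1, Dhrs3 and Rarb do not overlap between the regions, while Aldh1a2 runs from 12.6 to 132 CPM among cervical libraries alone.

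Rarb and Cyp26a1 are the 2 members whose promoters held a full direct repeat of receptor recognition hexamers, so their upstream sequences are shown. Promoter windows of RefSeq genes (GRCm38.p6), from 250 bases before the start site to 50 bases from it onward, were found for 8 of the 9 genes, in 14 windows, and not for Crabp2. They were searched on both strands for a pair of hexamers in the same orientation with a spacer of 5, 2 or 1 bases. Each hexamer was AGGTCA or any of 3 variants of it. The variants were AGTTCA and, in addition, GGGTCA as well as GGTTCA, which made 4 hexamers in all. With a spacer of 5, 2 of the 8 genes had a match, against 0.115% of the 27025 genes with a window (31 genes) and 0.0974% of all windows. Spacers of 2 and 1 gave no match in these 8 genes, against 0.311% and 0.263% of all genes. A match is a description of the letters and not evidence of a bound site.

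The 250 bases before each start site follow, 5′ to 3′ on the gene's strand, with the hexamers in capitals. The Rarb stretch is chr14:16575477-16575726 (minus strand) and the Cyp26a1 stretch is chr19:37697558-37697807 (plus strand), both in GRCm38.p6.
Rarb: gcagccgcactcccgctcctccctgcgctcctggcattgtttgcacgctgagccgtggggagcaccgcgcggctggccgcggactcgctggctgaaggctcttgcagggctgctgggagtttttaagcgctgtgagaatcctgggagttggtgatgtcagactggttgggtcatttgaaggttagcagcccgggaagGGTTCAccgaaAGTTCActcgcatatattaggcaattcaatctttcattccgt
Cyp26a1: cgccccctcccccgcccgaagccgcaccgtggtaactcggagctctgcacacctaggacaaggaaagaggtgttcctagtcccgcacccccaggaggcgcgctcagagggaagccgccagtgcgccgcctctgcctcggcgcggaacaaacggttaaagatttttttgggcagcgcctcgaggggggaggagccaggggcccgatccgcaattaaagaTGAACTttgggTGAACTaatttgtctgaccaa
In Rarb the repeat lies 53 to 37 bases before the start site on the gene's own strand. In Cyp26a1 the repeat lies 32 to 16 bases before the start site on the opposite strand. Of the genes with such a repeat that are not members, 9 were tested, too few to compare with all genes. None of these 9 was called on region alone, against 0.542% of all genes tested. With the block 1 was called, against 1.97% of all genes tested. It was Syndig1, named here after its value was seen (log2 fold change 0.59 in both fits, edgeR adjusted p = 0.0855, blocked 0.020).

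Aldh1a2 encodes the dehydrogenase that turns retinal into retinoic acid and lies on chromosome 9 from 71123071 to 71203525 (mm39). It stood at 132, 12.6 and 50.4 CPM in cervical libraries, against 23.0, 4.36 and 7.78 CPM in thoracic libraries. Replicate 1 was the highest and replicate 2 the lowest in each region, and cervical replicate 2 fell below thoracic replicate 1, so the regions overlapped. The cervical level exceeded the thoracic one 5.75-fold in replicate 1, 2.88-fold in replicate 2 and 6.48-fold in replicate 3. On region alone the log2 fold change was 2.44 with a standard error (SE) of 0.73 (edgeR adjusted p = 0.279). It dropped to 1.39 without cervical replicate 1. Without thoracic replicate 1 it was 3.42. Each of the 6 libraries was left out in turn, with no call in any of the 6 fits (edgeR adjusted p of 0.102 to 0.596). With the block it was 2.32 with an SE of 0.16 (edgeR adjusted p = 1.7e-05). The 3 within-pair log2 ratios had an SD of 0.63.

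The within-region spread of Aldh1a2 was the widest of the 9 genes, 10.5-fold among cervical and 5.29-fold among thoracic libraries. Summed levels of 8 motor neuron genes took the same order within each region. These genes need not all be on in every motor neuron, so their sum is not a measure of motor neuron number. They came to 636, 309 and 425 CPM in cervical libraries and to 579, 373 and 514 CPM in thoracic ones. Per 100 CPM of those genes, Aldh1a2 still stood at 20.8, 4.06 and 11.9 CPM in cervical libraries, against 3.98, 1.17 and 1.51 CPM in thoracic libraries. On this scale the lowest cervical value, 4.06, and the highest thoracic value, 3.98, nearly met. Of the 8 genes in the divisor, 0 were called on region alone and 2, Isl1 and Slc18a3, were called lower in cervical libraries with the block, with a median log2 fold change of -0.31 over the 8. A lower divisor raises the cervical ratios. In bulk RNA, fewer cells of a type and less RNA per cell cannot be told apart.

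Aldh1a2 is also active in meninges and mesenchyme, whose marker genes were detected in these libraries. The summed level of 11 genes of those tissues, all 11 of them tested, was 22.7, 71.5 and 222 CPM in cervical libraries and 137, 158 and 223 CPM in thoracic libraries. It was lowest in cervical replicate 1, the library with the most Aldh1a2. Of the 11 genes, 0 were called on region alone and 2 were called higher in thoracic libraries with the block. The 8 genes listed for the lateral motor column are not all specific to it. Among them, 1 was called in each direction on region alone (Lhx1 higher in cervical, Nkx6-1 higher in thoracic libraries). With the block, Runx1 joined Lhx1 on the cervical side, and Nkx6-1 stayed the only thoracic call. The log2 fold change of Runx1 was 1.39, and 1.35 with the block (edgeR adjusted p = 0.343, blocked 0.0109). That list summed to 961 to 1163 CPM in cervical libraries and 886 to 980 CPM in thoracic ones. Neural progenitor genes summed to 484 to 682 CPM in cervical libraries, against 570 to 779 CPM in thoracic ones. Of the 8 tested, 1 was called lower in cervical libraries on region alone and 2 with the block. The sums of 14 interneuron genes were 863 to 918 CPM in cervical libraries, against 793 to 822 CPM in thoracic ones. By gene, 1 of the 14 was called higher in cervical libraries and 3 were called lower (1 and 4 with the block), and their median log2 fold change was -0.22. Floor and roof plate genes summed to 13.8 to 42.7 CPM in cervical libraries, against 54.5 to 76.4 CPM in thoracic ones, without overlap. Of the 6 tested, 0 were called on region alone and 3 were called lower in cervical libraries with the block. Schwann and neural crest genes also did not overlap. Their sums were 240 to 260 CPM in cervical libraries, against 188 to 198 CPM in thoracic ones. Of the 5 tested, 1 was called higher in cervical libraries on region alone and 1 with the block. Dorsal root ganglion genes summed to 541 to 675 CPM in cervical libraries, against 456 to 589 CPM in thoracic ones. Of the 6 tested, 0 were called on region alone and 1 was called higher in cervical libraries with the block. The part of cell makeup in the differences was not tested.

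**Figure D2:**
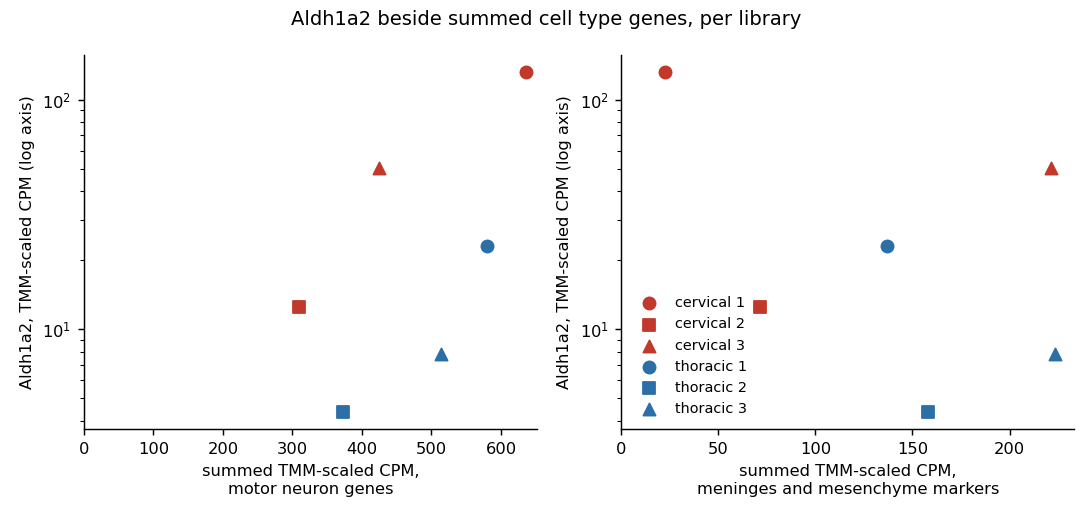
Aldh1a2 (TMM-scaled CPM, log axis) against the summed CPM of 8 motor neuron genes (left) and 11 meninges and mesenchyme genes (right), 1 point per library. Cervical replicate 1 has the most Aldh1a2, the highest motor neuron sum (636 CPM) and the lowest mesenchyme sum (22.7 CPM).

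Dhrs3 encodes a reductase that returns retinal to retinol and so limits the substrate of Aldh1a2. It stood at 18.4, 16.5 and 14.1 CPM in cervical libraries, against 11.4, 4.42 and 3.49 CPM in thoracic libraries. The regions did not overlap, as was the case for 13.7% of all genes tested (6.25% with cervical values on top, 7.5% with thoracic values on top), and thoracic replicate 1 lay nearest to the cervical values. The log2 fold change was 1.32 with an SE of 0.35 (edgeR adjusted p = 0.190), and 1.49 with an SE of 0.21 with the block (edgeR adjusted p = 0.00229). Without thoracic replicate 1 it was 2.04 and was called without the block (edgeR adjusted p = 0.00129).

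The 2 Cyp26 genes encode enzymes that oxidise retinoic acid for removal. Cyp26a1 was low, with 102, 45 and 38 reads in cervical libraries, against 33, 16 and 16 reads in thoracic libraries. This came to 3.16, 1.32 and 1.19 CPM in cervical and 0.616, 0.491 and 0.494 CPM in thoracic libraries, with no overlap and with cervical replicate 1 far above the rest. Its log2 fold change was 1.80 with an SE of 0.42 (edgeR adjusted p = 0.122), and 1.74 with an SE of 0.36 with the block (edgeR adjusted p = 0.0258). The blocked call was lost without replicate 1 (log2 fold change 1.34, edgeR adjusted p = 0.202) and without replicate 2 (1.88, edgeR adjusted p = 0.105), each left out in both regions.

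Cyp26b1 stood at 17.6, 8.48 and 8.26 CPM in cervical libraries, against 9.67, 13.9 and 17.8 CPM in thoracic libraries. Replicate 1 was higher in the cervical library and replicates 2 and 3 were higher in the thoracic ones, so the pairs went opposite ways. The log2 fold change was -0.26 with an SE of 0.29 (edgeR adjusted p = 0.906), and -0.31 with the block (edgeR adjusted p = 0.810). With the block and without replicate 1 in both regions it was -0.91 (edgeR adjusted p = 6.5e-05). That fit pooled the spread of all genes completely, so its p does not reflect the spread of Cyp26b1 itself. Cyp26a1 made up 32.6, 29.6 and 27.98% of the length-scaled CPM (RPKM) of both Cyp26 genes in cervical libraries, against 14.7, 8.72 and 6.96% in thoracic libraries. The shares did not overlap, while the summed Cyp26 level did, at 2.14 to 4.89 RPKM in cervical and 2.12 to 3.58 RPKM in thoracic libraries.

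Among the nuclear receptors, Rarb was the one that was called. It stood at 57.5, 45.3 and 44.97 CPM in cervical libraries, against 38.9, 22.2 and 23.6 CPM in thoracic libraries. The regions did not overlap, and replicate 1 was the highest in each. The cervical level was 1.48-fold, 2.04-fold and 1.91-fold the thoracic one in replicates 1, 2 and 3. The log2 fold change was 0.80 with an SE of 0.19 (edgeR adjusted p = 0.131), and 0.84 with an SE of 0.10 with the block (edgeR adjusted p = 4.9e-04). Without thoracic replicate 1 it was 1.1 and was called without the block (edgeR adjusted p = 0.0058).

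Rarb lies on chromosome 14 from 5650540 to 6038924 on the plus strand in mm39, the opposite strand label to that of its GRCm38.p6 promoter window. Of its 5265 exonic bases, 1793 are shared with Top2b on the opposite strand, a topoisomerase gene with a mean of 16135 reads per library against 1401 for Rarb. The strand setting of the counting is not given in the sources used here, so reads from the shared bases cannot be told apart. Top2b stood at 645, 403 and 427 CPM in cervical libraries, against 422, 380 and 420 CPM in thoracic libraries. In replicates 2 and 3 its cervical level was 1.06-fold and 1.02-fold the thoracic one, against 2.04-fold and 1.91-fold for Rarb, while in replicate 1 the folds were 1.53 for Top2b and 1.48 for Rarb. Top2b was called in neither fit (edgeR adjusted p = 0.6997, blocked 0.303).

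Rara, the broadly expressed receptor, stood at 125, 99.3 and 109 CPM in cervical libraries, against 108, 96.8 and 90.8 CPM in thoracic libraries. The ranges overlapped, and the log2 fold change was 0.17 with an SE of 0.09 (edgeR adjusted p = 0.685, blocked 0.323). Rarg, the receptor of skin and cartilage, stood at 4.59, 3.70 and 4.01 CPM in cervical libraries, against 3.83, 2.73 and 2.25 CPM in thoracic libraries, also with overlap. Its log2 fold change was 0.47 with an SE of 0.23 (edgeR adjusted p = 0.641, blocked 0.399). Per exonic length, Rarb made up 26.1 ± 1.19% of the summed RPKM of the 3 receptors in cervical libraries and 18.4 ± 3.50% in thoracic libraries (SD, n = 3 each). The shares did not overlap, at 24.7 to 26.8% in cervical and 15.6 to 22.3% in thoracic libraries. Rara made up 71.2 ± 1.16% and 79.2 ± 3.75% of the receptor RPKM in cervical and thoracic libraries (SD, n = 3 each).

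The binding proteins carry retinoic acid in the cytoplasm: Crabp2 delivers it to the nuclear receptors, and Crabp1 is linked to its retention and breakdown outside the nucleus. Crabp1 stood at 92.4, 64.4 and 83.9 CPM in cervical libraries, against 97.5, 119 and 89.4 CPM in thoracic libraries. Each thoracic library lay above the cervical one of the same number, but cervical replicate 1 exceeded thoracic replicate 3, so the ranges overlapped. The log2 fold change was -0.35 with an SE of 0.13 (edgeR adjusted p = 0.465, blocked 0.253). The pairs differed most in replicate 2, in which the thoracic level was 1.85-fold the cervical one, against 1.06-fold and 1.07-fold in replicates 1 and 3. With the block and without replicate 1 in both regions the log2 fold change was -0.49 (edgeR adjusted p = 8.7e-06). That fit pooled the spread of all genes completely, so its p does not reflect how far the remaining Crabp1 pairs differed.

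Crabp2 stood at 63.6, 33.9 and 47.4 CPM in cervical libraries, against 60.5, 44.9 and 45.1 CPM in thoracic libraries. The ranges overlapped, with a log2 fold change of -0.06 and an SE of 0.19 (edgeR adjusted p = 0.980, blocked 0.872). Within each region the order of the libraries was that of the summed motor neuron genes. In thoracic replicates 2 and 3 it rested on nearly level values, 44.9 and 45.1 CPM, while the summed genes stood at 373 and 514 CPM. Per 100 CPM of those genes, Crabp2 stood at 10.0 to 11.2 CPM in cervical libraries, against 8.77 to 12.1 CPM in thoracic ones. The highest over the lowest cervical value of Crabp2 in CPM itself was 1.87.

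The plot of log2 fold changes sets the pairs beside both fits. The 3 pairs went in 1 direction for all members except Cyp26b1 and Crabp2. How often this occurs among all genes tested was not counted. With the block the SE of Aldh1a2 was 0.16, against 0.73 on region alone. The blocked fit left 2 residual degrees of freedom per gene, and the spread shared across all genes weighed more than these. Its SE and p therefore do not measure the agreement of a gene's own 3 pairs. The pair log2 ratios had an SD of 0.63 for Aldh1a2 and 0.73 for Dhrs3.

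**Figure D3:**
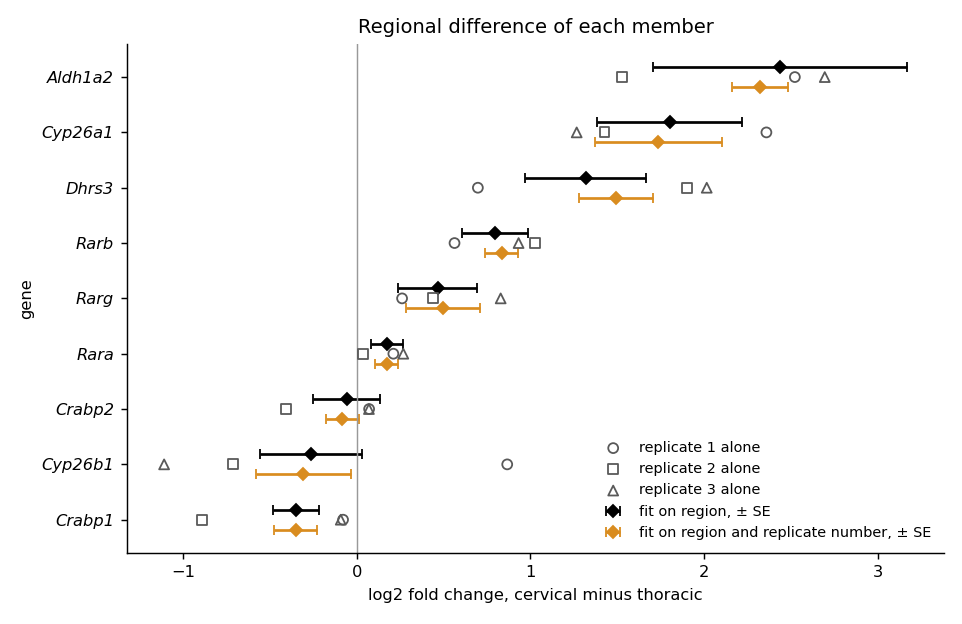
Log2 fold change, cervical minus thoracic, of each gene: open markers for the 3 replicate numbers alone, black diamonds for the fit on region and orange diamonds for the fit with the replicate block, with SE bars. Aldh1a2 (2.44 on region alone, 2.32 with the block) lies farthest to the right and the Cyp26b1 pairs fall on both sides of 0.

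Levels of different genes were compared as RPKM, which divides CPM by the exonic length in kilobases. Averaged over the 6 libraries, Crabp1 was the most abundant member at 114 RPKM, followed by Crabp2 at 37.3, Rara at 24.0, Aldh1a2 at 16.98, Rarb at 7.36, Dhrs3 at 3.89, Cyp26b1 at 2.36, Rarg at 0.825 and Cyp26a1 at 0.611 RPKM. Crabp1 lay above Crabp2 in all 6 libraries, Rarb above Dhrs3 in all 6, and Cyp26b1 above Rarg in all 6. Neighbours that overlapped within at least 1 region were Crabp2 and Rara, Rara and Aldh1a2, Aldh1a2 and Rarb, Dhrs3 and Cyp26b1, and Rarg and Cyp26a1.

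The place of Aldh1a2 in this order varied between libraries. It ranked 2 of 9 in cervical replicate 1 (58.5 RPKM) and 4 in cervical replicate 3 and thoracic replicate 1. It ranked 6 in replicate 2 of both regions and 5 in thoracic replicate 3. The ratio of Aldh1a2 to both Cyp26 genes, synthesis over breakdown at the RNA level, was 11.96, 2.47 and 10.4 in cervical libraries, against 4.81, 0.678 and 0.961 in thoracic libraries. The ranges of this ratio overlapped through cervical replicate 2 and thoracic replicate 1.

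**Figure D4:**
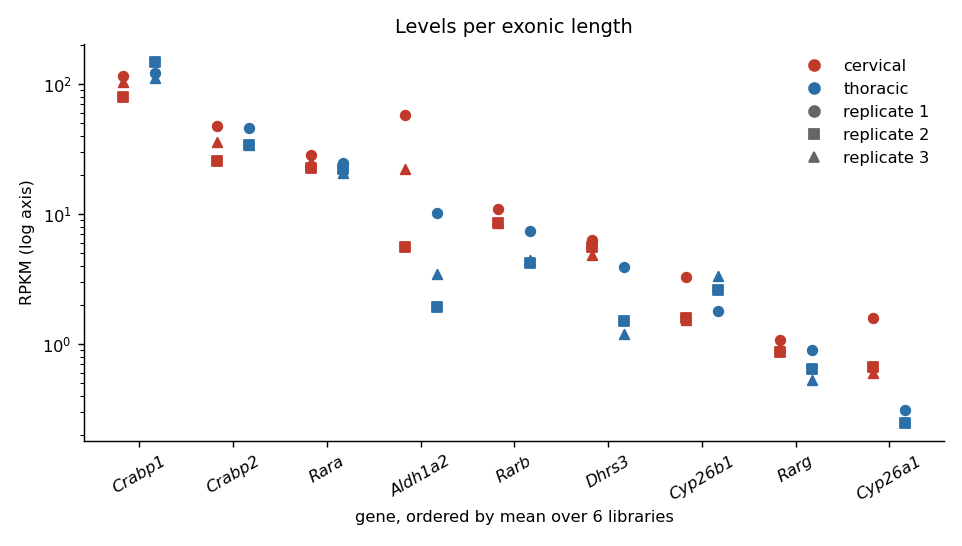
RPKM of the 9 genes on a log axis, ordered by the mean over 6 libraries, cervical (red) left of thoracic (blue), with 1 marker shape per replicate number. Crabp1 is the highest gene in each library, and Aldh1a2 spans from 1.92 to 58.5 RPKM.

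The wider pathway was read from 72 other genes in 6 lists, of which 49 were tested. None was called on region alone (edgeR), against 0.542% of all genes tested. In that fit 7 had an unadjusted p below 0.05, against 8.47% of all genes tested. DESeq2 without the block called 3, against 408 of all 21972 genes tested, and limma-voom called 0, against 107. With the block 4 were called, 2 of them higher in cervical libraries and 2 lower, against 1.97% of all genes tested. The median log2 fold change of the 49 was -0.04, against 0.01 over all genes tested.

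None of 8 tested genes of retinol and retinal oxidation and reduction was called in either fit, and the most abundant, Adh5, stood at 67.6 ± 0.881 and 67.3 ± 6.49 CPM in cervical and thoracic libraries (SD, n = 3 each). The other retinaldehyde dehydrogenases, Aldh1a1 and Aldh1a3, did not pass the filter on low counts, with mean levels of at most 0.184 CPM in either region. Neither of 2 tested genes of other breakdown and binding steps was called, with Fabp5, a fatty acid-binding protein that also carries retinoic acid, at 49.0 ± 6.90 CPM in the cervical group, against 43.4 ± 4.67 CPM in the thoracic group (SD, n = 3 each). The 3 retinoid X receptors, partners of the retinoic acid receptors on DNA, were called in neither fit. Rxrb, the most abundant of them, stood at 66.8 ± 5.43 and 64.7 ± 1.72 CPM in cervical and thoracic libraries (SD, n = 3 each).

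Of 21 receptor corepressors, coactivators and competing nuclear receptors, 1 was called with the block. Nr2f2, an orphan receptor that competes for retinoid response elements, stood at 186, 136 and 156 CPM in cervical libraries, against 218, 177 and 231 CPM in thoracic libraries. Each thoracic library exceeded the cervical one of its number (log2 fold change -0.39, SE 0.12, edgeR adjusted p = 0.290, blocked 0.00884). The most abundant of the list, the coregulator Rere, stood at 508 ± 15.8 and 531 ± 9.60 CPM in cervical and thoracic libraries (SD, n = 3 each).

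Of 10 tested genes known to respond to retinoic acid, other than the members, Ret, a receptor of glial cell line-derived neurotrophic factors, was called lower in cervical libraries with the block. It stood at 84.0, 38.5 and 40.2 CPM in cervical libraries, against 101, 68.9 and 83.2 CPM in thoracic libraries. Its difference was -0.64 on the log2 scale (SE 0.26, adjusted p of 0.505 from edgeR and of 0.0050 with the block). The most abundant of the list, the transcription factor gene Zfp503, stood at 319 ± 46.8 and 364 ± 11.6 CPM in cervical and thoracic libraries (SD, n = 3 each) and was not called. The blocked calls were lost without replicate 2 in both regions for Nr2f2 and Ret (edgeR adjusted p of 0.0849 and 0.0807), and without replicate 3 for Nr2f2 (0.0649). Nr2f2 shares 643 exonic bases with B130024G19Rik on the opposite strand, so its counts are uncertain to that extent.

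Likeness of pattern was taken as the Pearson correlation of log2 CPM over the 6 libraries, among 11971 genes (11972 for Cyp26a1) with a mean of at least 5 CPM. With 6 points that share regions and replicate numbers, these values are a description. Genes most like Dhrs3 included ENSMUSG00000121096 (r = 0.996) and the netrin receptor gene Unc5a (0.993). Rarb was most like Hoxb3 (0.998), Ttc21b (0.990) and Tshz1 (0.985). Aldh1a2 was most like Gm47657 (0.996), Sh3bp4 (0.981) and Lemd1 (0.977), whose own log2 fold changes of 0.25, 0.13 and 0.27 were far smaller. Cyp26a1 was most like Wdr73 (0.992), Actl6a (0.988) and Atox1 (0.983).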

How the data were processed

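The submitters' processing notes name FastQC 0.11.9, STAR 2.7.5b, featureCounts 2.0.1 and the build mm39. The deposited values are whole-number counts per gene, with exonic lengths and mm39 coordinates per the file headers. By the protocols in the labels, input was 10 to 20 ng, amplified for 15 cycles into stranded libraries. No molecular identifiers are mentioned. Library totals were 32103071 to 33790634 counts, apart from thoracic replicate 1 with 53186131. Replicates of a region differed beyond counting noise, with a chi-square of 10.1 to 16.2 per degree of freedom, so none was treated as a repeat deposit of another. This does not show that they came from separate embryos.

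Genes were kept by the edgeR 4.0.16 default filter with a minimum count of 10 (21972 genes), given TMM factors (0.989 to 1.01) and, in R 4.3.3, fitted with region as the only term in the quasi-likelihood model. Log2 fold changes use a prior count of 0.125. The SE was taken as the absolute log2 fold change over the root of F. Adjustment was over all genes tested. CPM and RPKM use the TMM-scaled totals. Same-numbered libraries had correlated deviations from their region's mean (0.207, 0.201 and 0.240). Deviations from a mean cancel within a region, so the negative values between libraries of different number (at most -0.0116) follow from this. The numbers, from the titles, were taken as pairs on these modest correlations, and the blocked fit is given beside the main one. What same-numbered libraries have in common is not stated. DESeq2 1.42.0 and limma-voom 3.58.1 were alternatives. The scripts were tested on simulated data.

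The genes, lists and tests were chosen with earlier results of these data known. The text names every member, other pathway genes called in either fit, the most abundant tested gene per list, and the 3 genes most like each called member, except for some genes that are not reported here. Isl1, Slc18a3, Lhx1, Nkx6-1, Runx1, Top2b, Aldh1a1, Aldh1a3 and B130024G19Rik were named after their values were seen. The reference tables are of another build (GRCm38.p6), used for promoter sequence and not for the coordinates of the counts.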

Additional observations from a re-analysis of the deposited data

How the results depend on the processing

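The direction of Aldh1a2, Cyp26a1, Dhrs3, Rarb, Rara, Rarg and Crabp1 was kept in all 18 alternative fits. Crabp2, not called in any and between -0.31 and 0.14 without 1 library, turned to 0.14 without cervical replicate 2, to 0.10 without thoracic replicate 1 and to 0.074 with the replicate block and without replicate 2 in both regions. Cyp26b1 turned to 0.10 with the replicate block and without replicate 3 in both regions. Calls depended on the pairing, as follows.

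Of the 9 members, 4 were called with the replicate block, 4 with the block in limma-voom and 3 with the block in DESeq2, where the adjusted p of Cyp26a1 was not available. The last 2 fits were chosen after seeing the data. Without the block, DESeq2 called 1, and 5 were called with no filter on low counts. Over all genes, in place of 119, these settings called 432 (block), 471 (block, limma-voom), 499 (block, DESeq2), 408 (DESeq2) and 747 (no filter). Of the other pathway genes they called 4, 4, 4, 3 and 5. With no filter, and with the block without replicate 1, the fit pooled the spread of all genes completely (infinite prior degrees of freedom), so its adjusted p are too small for genes that vary more than most.

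Without 1 library, 9 (without cervical replicate 3) to 159 (without cervical replicate 1) genes were called in all, 0 to 2 members and 0 to 2 other pathway genes. With the block and without 1 pair of libraries, 184 (without replicate 2), 283 (without replicate 3) and 798 (without replicate 1) genes, 3 to 5 members and 1 to 9 other pathway genes were called. In these 3 fits Aldh1a2, Dhrs3 and Rarb were called each time. Median-of-ratios scaling, library totals, a mean CPM of at least 1 and limma-voom without the block called 0 members. No scaling moved the median log2 fold change of all genes by more than 0.01. Cyp26a1 rests on 16 to 102 reads per library.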
